A study of Mus musculus with 2 samples.

Results

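The 6 members of the neurotrophin system were examined in mouse hippocampus: the ligand genes Bdnf and Ntf3, and the receptor genes Ntrk2, Ntrk3, Ngfr and Sort1. They were chosen by gene symbol, and all 6 were found among the 55536 annotated genes of the tables. Their annotated transcripts numbered 48 of 141767, with 11 for Bdnf, 3 for Ntf3, 10 for Ntrk2, 20 for Ntrk3, 1 for Ngfr and 3 for Sort1. The RNA came from hippocampi of B6CASTF1/J females aged 14 days, F1 hybrids of C57BL/6J and CAST/EiJ, and was sequenced as total RNA after removal of ribosomal RNA, with no treatment or genetic change named in the labels. The study held 1 group of 2 libraries, replicate 1 and replicate 2, each listing 3 females and an input of 300 ng of RNA. The libraries list different mouse numbers under 1 shared donor identifier, so each SD below measures the spread between these libraries only. The labels call the tissue a layer of the hippocampus without saying which, and they do not state at which step the females of a library were combined. With no other condition, no test was possible, and the values below are a description with the spread between the 2 libraries.

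Neurotrophins are secreted growth factors made as precursors (proneurotrophins) that proteases cut into mature dimers. Mature brain-derived neurotrophic factor (BDNF, from Bdnf) binds the receptor tyrosine kinase TrkB (from Ntrk2), and mature neurotrophin-3 (from Ntf3) binds chiefly TrkC (from Ntrk3). Precursors bind the p75 receptor (from Ngfr) together with sortilin (from Sort1), a sorting receptor that also directs BDNF inside the cell. Ntrk2 and Ntrk3 each make full-length receptors and truncated receptors that keep the ligand-binding and membrane-spanning parts and lack the kinase domain. In hippocampus BDNF and TrkB are best known for their part in synaptic plasticity, and Bdnf is transcribed from several promoters, each with its own first exon spliced to a shared exon that carries the coding sequence.

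The sequences where the receptor forms part are printed because the isoform shares below rest on reads that reach past those points. They are coding sequence of the mm10 assembly (the C57BL/6J reference) in the orientation of the gene, with the bases before the parting point in lower case and the bases after it in capitals. All 3 Ntrk2 transcripts share 464 codons up to that point, and both Ntrk3 transcripts share 528. Ntrk2-201 is full-length, Ntrk2-202 is the truncated form known as T1, whose coding sequence ends at the TAG that closes its line, and Ntrk2-205 is another annotated truncated form. The capitals lie at chr13:58985802-58985839 for Ntrk2-201, chr13:58932023-58932060 for Ntrk2-202 and chr13:58878339-58878376 for Ntrk2-205, all on the plus strand. They lie at chr7:78260377-78260414 for the full-length Ntrk3-201 and chr7:78304389-78304426 for the truncated Ntrk3-202, both on the minus strand.
Ntrk2-201: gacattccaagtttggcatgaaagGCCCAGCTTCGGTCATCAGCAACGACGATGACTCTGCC
Ntrk2-202: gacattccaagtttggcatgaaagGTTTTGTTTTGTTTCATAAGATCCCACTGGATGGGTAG
Ntrk2-205: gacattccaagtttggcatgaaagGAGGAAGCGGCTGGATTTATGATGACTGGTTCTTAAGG
Ntrk3-201: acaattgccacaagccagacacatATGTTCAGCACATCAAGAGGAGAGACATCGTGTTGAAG
Ntrk3-202: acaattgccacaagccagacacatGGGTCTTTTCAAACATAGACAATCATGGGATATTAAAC

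Inserted exons separate further forms, and here the capitals mark the insert between its flanking coding bases. The 42-base insert of Ntrk3-205 adds 14 codons after codon 711 of the full-length receptor (chr7:78204103-78204144, minus strand). The 99-base insert of Sort1-203 adds 33 codons after codon 748 of sortilin (chr3:108355472-108355570, plus strand).
Ntrk3-205 insert: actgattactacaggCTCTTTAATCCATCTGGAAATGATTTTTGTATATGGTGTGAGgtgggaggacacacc
Sort1-203 insert: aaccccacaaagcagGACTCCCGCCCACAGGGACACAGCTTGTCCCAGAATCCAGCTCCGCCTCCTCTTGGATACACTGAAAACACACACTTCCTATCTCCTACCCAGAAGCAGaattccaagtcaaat

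The libraries held 33465393 and 32879872 expected counts (estimated reads per gene). Levels are given in TPM, a share of all transcripts in the library that is corrected for transcript length and so can be compared between genes. The authors deposited 2 quantifications, 1 from alignments to the transcriptome and 1 from the reads themselves. Unless stated, values are from the alignment-based tables. The libraries stood apart in the genes of choroid plexus, the epithelium that makes cerebrospinal fluid. Its 8 listed markers had a summed level of 1437 TPM (replicate 1) against 9.86 TPM (replicate 2). Ttr gave most of both sums, at 1375 and 5.62 TPM. All 8 were over 1.2-fold lower in replicate 2, from 5.07-fold for Kl to 227-fold for Ttr. Of 7 markers of fibroblasts and meninges, 6 were over 1.2-fold lower in replicate 2 and 1 higher, with sums of 196 and 127 TPM. The defining markers of the tissue were present in both libraries, with sums of 2366 and 2557 TPM for 7 genes of hippocampal excitatory neurons, 1840 and 2147 TPM for 7 of astrocytes, 1671 and 1644 TPM for 5 of oligodendrocytes, and 78.4 and 91.5 TPM for 3 of microglia.

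The receptors Ntrk2, Sort1 and Ntrk3 were abundant, the ligand Bdnf was close to the middle of the detected genes, Ntf3 was low, and Ngfr was under 1 TPM in replicate 2. Of the 21938 nuclear protein-coding genes, 12885 had at least 1 TPM in both libraries, with a median of 14.9 TPM. The order by level was Ntrk2, Sort1, Ntrk3, Bdnf, Ntf3 and Ngfr, and no neighbours in that order had overlapping library values. The read-based tables gave the same order.

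**Figure D1:**
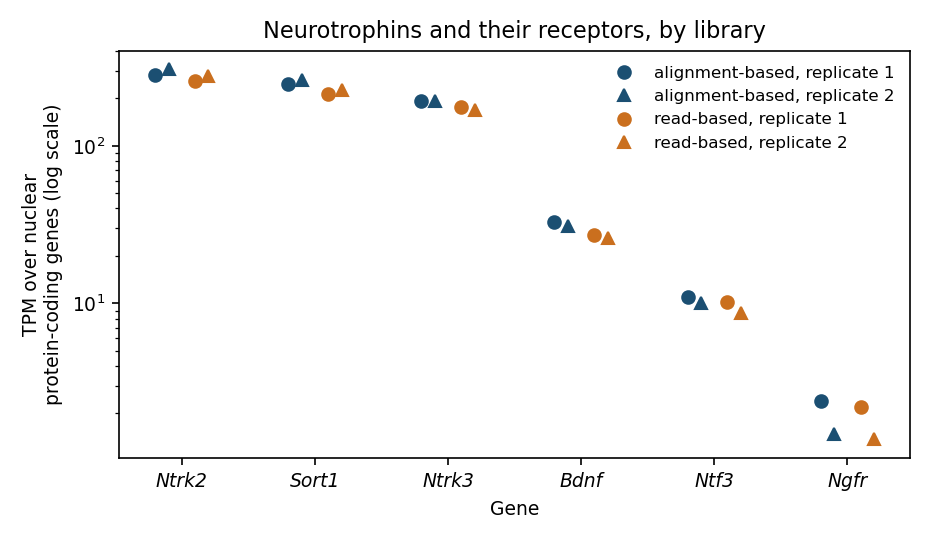
Level of each gene by library, as TPM computed over nuclear protein-coding genes alone, on a log scale; circles are replicate 1, triangles replicate 2, blue the alignment-based and orange the read-based tables. On this scale Ntrk2 lies at 294 and Ngfr at 1.94 in the alignment-based mean, and Ngfr is the gene whose libraries lie farthest apart.

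Bdnf (ENSMUSG00000048482.14, chr2:109674700-109727007, plus strand) encodes the main TrkB ligand. It had 14.8 TPM in replicate 1 and 13.3 TPM in replicate 2 (14.1 ± 1.10, SD, n = 2), from 1323 and 1180 counts. Of the detected protein-coding genes, 48.2% lay below it. Ntf3 (ENSMUSG00000049107.13, chr6:126101412-126166910, minus strand) encodes the main TrkC ligand. It had 4.91 and 4.28 TPM (4.595 ± 0.445, SD, n = 2) from 141 and 121 counts, and 19.4% of the detected genes lay below it. Bdnf was thus 3.02 times Ntf3 in replicate 1 and 3.11 times in replicate 2 (3.06 ± 0.0585, SD, n = 2). In the read-based tables the ratio was 2.83 ± 0.234 (SD, n = 2).

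Ntrk2 (ENSMUSG00000055254.15, chr13:58806569-59133970, plus strand), the gene of TrkB, was the most abundant of the 6. It had 127 and 131 TPM (129 ± 3.39, SD, n = 2) from 17816 and 18047 counts, above 95.3% of the detected genes. Ntrk3 (ENSMUSG00000059146.12, chr7:78175959-78738012, minus strand), the gene of TrkC, had 86.6 and 82.1 TPM (84.35 ± 3.15, SD, n = 2) from 13568 and 12806 counts, above 91.9% of the detected genes. In each library the kinase-receptor gene, over all its transcripts, stood well above the gene of its ligand. Ntrk2 was 8.53 and 9.89 times Bdnf, and Ntrk3 was 17.6 and 19.2 times Ntf3. These ratios include forms without the kinase domain. Full-length transcripts alone, at 53.15 and 50.15 TPM for Ntrk2 and 35.6 and 34.25 TPM for Ntrk3, exceeded the ligand genes by less. Ntrk2 was 1.46 and 1.60 times Ntrk3 over all transcripts. Over transcripts with a complete coding sequence it was 1.99 and 2.07 times Ntrk3, since a larger part of the Ntrk3 TPM was assigned to transcripts without one.

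Sort1 (ENSMUSG00000068747.14, chr3:108284082-108361511, plus strand) had 111 and 112 TPM (111 ± 0.735, SD, n = 2) from 16906 and 16967 counts, above 94.2% of the detected genes. Ngfr (ENSMUSG00000000120.6, chr11:95568818-95587735, minus strand) had 1.08 and 0.63 TPM (0.855 ± 0.318, SD, n = 2) from 83 and 48 counts. The partners of the proneurotrophin receptor therefore lay far apart, with Sort1 at 103 and 178 times Ngfr. The p75 receptor is best known in the brain from cholinergic neurons of the basal forebrain, whose axons reach the hippocampus. The 3 cholinergic markers summed to 0.45 and 0.32 TPM. Slc5a7, the choline transporter, had 0.45 and 0.24 TPM (51 and 25 counts), Slc18a3, the vesicular acetylcholine transporter, had 0 and 0.08 TPM, and Chat, the acetylcholine-making enzyme, was listed at 0 in both libraries.

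Between the libraries, 1 of the 6 genes lay over 1.2-fold apart after scaling the counts for library composition (TMM, the trimmed mean of M-values), and that gene was Ngfr. Over all 14715 genes with a mean of at least 1 TPM and at least 50 counts in sum, 21.1% lay over 1.2-fold apart, 11.6% lower and 9.51% higher in replicate 2. Ngfr falls below that 1 TPM mean. It was 1.59-fold lower in replicate 2 (95% exact counting interval 1.11 to 2.33, which covers counting error only). Among the 1558 genes with 100 to 200 counts over both libraries, a group set beside Ngfr after its value was seen, 28.9% were over 1.2-fold lower and 10.2% over 1.5-fold lower in replicate 2. The authors' own intervals for Ngfr, of unstated level, were on deposited TPM, without TMM scaling. They were 0.842 to 1.29 TPM for replicate 1 and 0.456 to 0.802 TPM for replicate 2, and did not overlap. On deposited TPM the ratio of replicate 2 to replicate 1 was 0.583, against 0.627 with TMM. These intervals are therefore not on the scale of the 1.59-fold value, and whether they would overlap under TMM was not computed. The choroid plexus and meningeal marker sums given above were also lower in replicate 2. Of the 3 cholinergic markers, Slc5a7 was 1.87-fold lower in replicate 2, from 51 and 25 counts. Slc18a3 had 0 and 4 counts, and Chat had 0 in both libraries. The part of these cell types in the Ngfr value was not tested. In bulk tissue, fewer cells of a type and less RNA per cell cannot be told apart.

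The other 5 genes had replicate 2 to replicate 1 ratios between 0.927 and 1.09. Bdnf was at 0.963 (counting interval 0.890 to 1.04), Ntf3 at 0.927 (0.721 to 1.19) and Ntrk3 at 1.02 (0.995 to 1.04), and these intervals include 1. Ntrk2 was at 1.09 (1.07 to 1.12) and Sort1 at 1.08 (1.06 to 1.11). Both ratios were smaller with scaling to the spike-in RNAs, at 1.05 for Ntrk2 and 1.04 for Sort1. The Ntrk3 ratio lay on the other side of 1 with that scaling, at 0.976. In the same libraries 3 of 7 astrocyte, 4 of 7 excitatory neuron and 2 of 3 microglia markers were over 1.2-fold higher in replicate 2. Of 5 oligodendrocyte markers 0 were, and of the 14715 genes above 9.51% were. Gfap (0.953) of the astrocyte list and Neurod6 (0.909) and Cpne4 (0.943) of the neuron list had ratios below 1. The part of these cell types in the member ratios was not tested.

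Ntrk2 transcripts were divided by where their coding sequence ends. Full-length TrkB of 821 codons comes from Ntrk2-201 and Ntrk2-207, which end at the stop codon that starts at chr13:59128351. These had 53.1 and 50.15 TPM together (51.65 ± 2.12, SD, n = 2). The 5 truncated transcripts had 72.1 and 79.6 TPM (75.85 ± 5.30, SD, n = 2). Truncated forms therefore held 57.6% of the coding TPM in replicate 1 and 61.3% in replicate 2 (59.5% ± 2.68, SD, n = 2), and full-length forms the remaining 42.4% and 38.7%. The library values of the classes did not overlap, and by TPM truncated transcripts were the larger class in both libraries. By expected counts, which are not corrected for length, the truncated share was 49.5% in replicate 1 and 52.6% in replicate 2, so the order of the classes turned in replicate 1. By read-based counts it was 48.0% and 50.7%. The read-based tables gave a truncated share of 55.4% and 58.2% (56.8% ± 1.94, SD, n = 2).

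T1, the truncated TrkB form known as abundant in astrocytes, made up most of the truncated class. Its 2 transcripts, Ntrk2-202 and Ntrk2-204, encode 476 codons and end at a stop codon that starts at chr13:58932058. They had 56.1 and 62.3 TPM (59.2 ± 4.36, SD, n = 2), or 46.4% ± 2.26 (SD, n = 2) of the coding TPM. By TPM, T1 transcripts exceeded full-length TrkB transcripts in both libraries, at 56.1 against 53.1 TPM in replicate 1 and 62.3 against 50.15 TPM in replicate 2. By expected counts T1 held 44.8% against 50.5% of the coding counts in replicate 1 and 47.6% against 47.4% in replicate 2. By read-based counts T1 was the lower in both libraries, at 45.7% against 52.0% and 48.5% against 49.3%. Ntrk2-202 alone had 48.0 and 50.7 TPM, more than any other transcript of the 6 genes except Sort1-201, while full-length Ntrk2-201 had 36.4 and 35.6 TPM and Ntrk2-207 had 16.8 and 14.5 TPM. Ntrk2-204 was assigned 8.12 and 11.6 TPM from alignments and 23.5 and 26.9 TPM from reads, so its level depended on the quantification.

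Ntrk2-205, whose 492 codons end in a sequence of their own, had 13.3 and 14.6 TPM, or 10.9% ± 0.454 (SD, n = 2) of the coding TPM. In the read-based tables it had 7.43 and 7.33 TPM. The other truncated transcripts, Ntrk2-208 and Ntrk2-209, held 1.66% and 0.460% of the coding TPM on average. Their coding ends can be told from the rest of the gene by few words of 31 bases, 107 and 25, against 410 for Ntrk2-205, 5081 for T1 and 6703 for the full-length class. Of the 10 Ntrk2 transcripts, 5 held at least 5% of the gene's TPM in either quantification, and no other exceeded 1.95%.

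**Figure D2:**
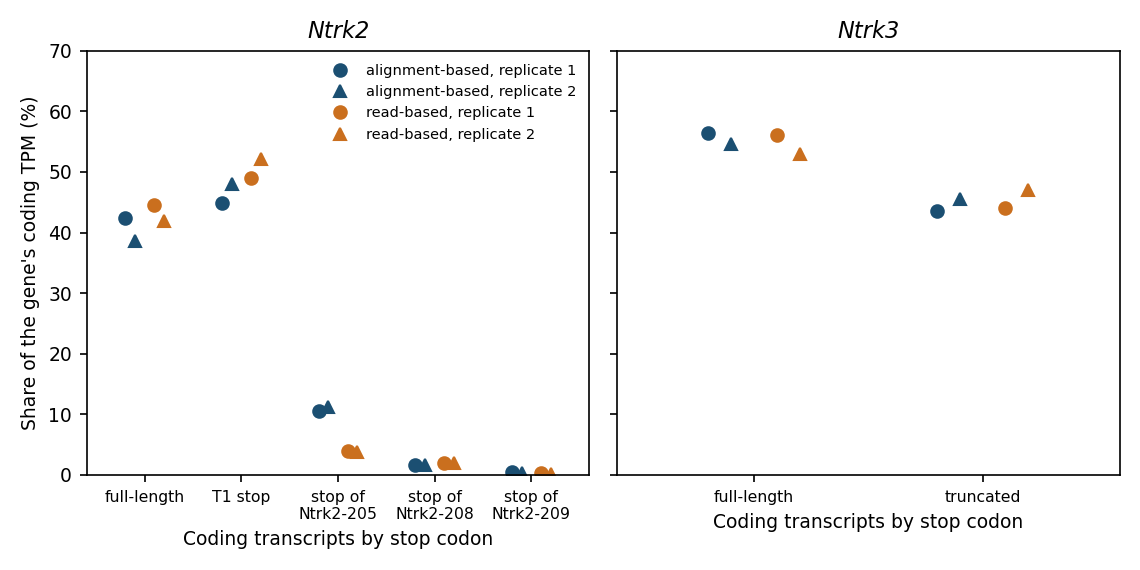
Share of the coding TPM of Ntrk2 (left) and Ntrk3 (right) by stop codon in percent, for each library and quantification; circles are replicate 1 and triangles replicate 2. The T1 stop is above the full-length stop of Ntrk2 in all 4 tables, while the truncated class of Ntrk3 is below its full-length class in all 4.

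In Ntrk3 the full-length class was the larger by TPM and by counts. Full-length TrkC transcripts, which end at the stop codon that starts at chr7:78192559, had 35.6 and 34.2 TPM together (34.9 ± 0.955, SD, n = 2). The truncated class was the 1 transcript Ntrk3-202, of 612 codons, which ends at the stop codon that starts at chr7:78302629. It had 27.4 and 28.5 TPM (28.0 ± 0.771, SD, n = 2), or 43.5% and 45.5% of the coding TPM (44.5% ± 1.35, SD, n = 2). The read-based share was 44.0% and 47.0%. The ratio of full-length to truncated TPM was 1.25 ± 0.0685 for Ntrk3 and 0.684 ± 0.0758 for Ntrk2 (SD, n = 2), and the library values of the 2 genes did not overlap. Between the genes, Ntrk2 exceeded Ntrk3 by 1.48 ± 0.0203 times in full-length and by 2.71 ± 0.115 times in truncated transcripts (SD, n = 2).

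The class shares of Ntrk3 depend on the annotated transcript lengths. Ntrk3-201, the leading full-length transcript, is annotated at 19703 bases, and Ntrk3-202 at 3977 bases. By expected counts Ntrk3-202 held 19.3% of the coding counts in place of 44.5% of the coding TPM. For Ntrk2 the mean truncated share was 51.0% by counts against 59.5% by TPM.

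Within full-length TrkC, Ntrk3-201 of 825 codons led with 22.2 and 20.6 TPM. Ntrk3-205, with the 14-codon insert printed above, had 10.4 and 11.0 TPM. Inserts in the kinase domain of TrkC are known to alter its signalling. Ntrk3-206, of 864 codons, had 2.92 and 2.67 TPM from alignments and 8.27 and 6.26 TPM from reads. Words of 31 bases found in no other transcript of the gene numbered 30 for Ntrk3-205, 104 for Ntrk3-206 and 12445 for Ntrk3-201. The 30 words are fewer than the 42-base insert and its junctions span, so insert sequence also occurs in another annotated Ntrk3 transcript. The TPM of Ntrk3-205 is therefore the level of that transcript and not of the insert as a whole.

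Ntrk3 also carried a large share of its TPM on short annotated entries. The 9 entries under 600 bases held 22.9% and 19.7% of the gene's TPM but 1.07% and 0.920% of its counts. Their identity differed between the quantifications. Ntrk3-220, a non-coding entry of 435 bases, had 11.4 and 12.6 TPM from alignments and was listed at 0 in both libraries from reads. Ntrk3-214, of 426 bases with an incomplete coding sequence, had 27.3 TPM from reads in replicate 1 and essentially none in replicate 2. Ntrk3-212, of 423 bases, had 2.71 and 24.6 TPM from reads and was listed at 0 from alignments. For Ntrk2 the entries under 600 bases held 0.432% ± 0.131 (SD, n = 2) of the TPM. The coding total of Ntrk3, 63.0 and 62.8 TPM, leaves these entries out.

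Bdnf transcripts were grouped into 8 first exons, numbered here from the 5′ to the 3′ end of the gene. All 11 transcripts end at the same stop codon (starting at chr2:109724150) and share the last exon, so reads from the coding part cannot tell the promoters apart. Short and long forms of the 3′ end were likewise not separable in these tables. First exon 6 led in both libraries and both quantifications, first exon 4 followed in 3 of the 4 tables, and first exons 2 and 1 held smaller shares.

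**Figure D3:**
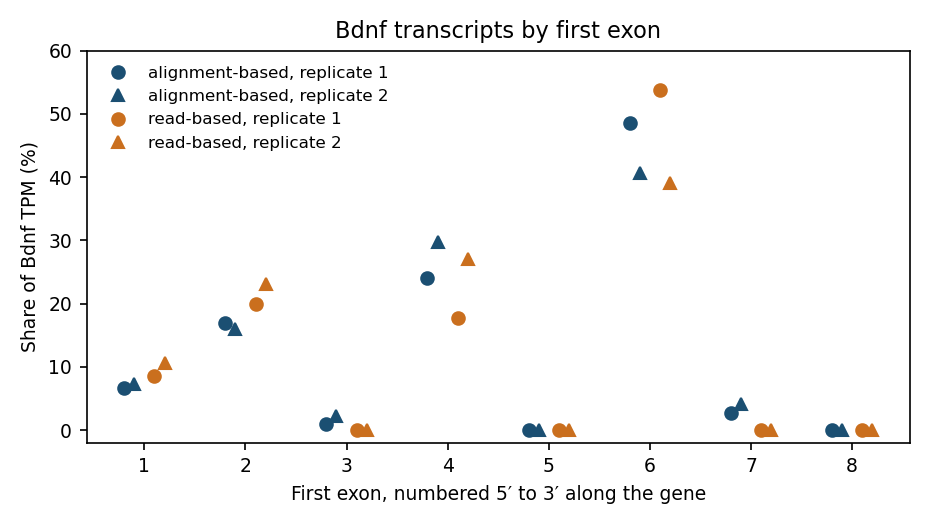
Share of Bdnf TPM by first exon, in percent, for each library and quantification; circles are replicate 1, triangles replicate 2, blue the alignment-based and orange the read-based tables. First exon 6 is highest in all 4 tables, between 39.1% and 53.8%, and first exons 5 and 8 lie at or next to 0.

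First exon 6 (Bdnf-205, starting at chr2:109693563) had 7.20 and 5.41 TPM, or 48.6% and 40.7% of the gene (44.6% ± 5.55, SD, n = 2). The authors' intervals for it, 5.39 to 7.81 and 3.94 to 5.94 TPM, overlapped between the libraries. Its read-based share was 53.8% and 39.1%. First exon 4 (Bdnf-209, starting at chr2:109692436), the start of the best-studied activity-dependent transcript, had 3.56 and 3.95 TPM, or 24.01% and 29.7% (26.9% ± 4.04, SD, n = 2). The authors' intervals for first exon 4 were 2.30 to 4.26 and 2.62 to 4.68 TPM. They lay below those of first exon 6 in replicate 1 and overlapped them in replicate 2.

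First exon 2 (starting at chr2:109675897) has 3 transcripts with different splice sites, Bdnf-210, Bdnf-207 and Bdnf-208, which had 2.51 and 2.13 TPM together (16.5% ± 0.635 of the gene, SD, n = 2). Within it, Bdnf-210 had 0.82 and 1.49 TPM and Bdnf-207 had 1.35 and 0.64 TPM, so their order differed between the libraries while the sum did not move as far. In the read-based tables this first exon held 19.9% and 23.2%, above first exon 4 in replicate 1 and below it in replicate 2. First exon 1 (Bdnf-201, starting at chr2:109674700), whose start codon lies in the first exon and lengthens the coding sequence from 249 to 257 codons, had 1.00 and 0.97 TPM (7.02% ± 0.393, SD, n = 2).

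The other first exons were low, and the quantifications differed on first exons 7 and 3. First exon 7 had 0.41 and 0.54 TPM and first exon 3 had 0.15 and 0.29 TPM from alignments, and both were at or next to 0 from reads. First exons 5 and 8 were listed at 0 from alignments in both libraries. For first exon 5, 3 counts would give 0.0364 and 0.0366 TPM in the 2 libraries, but the authors' upper bounds were 0.322 and 0.367 TPM, since most reads of this transcript are shared with the others. Of its words of 31 bases, 77 are found in no other first exon group, against 345 for first exon 6, 335 for first exon 4, 550 for first exon 2 and 639 for first exon 1.

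The bases before first exon 4 are printed because this promoter is known for its calcium- and cAMP-responsive element, bound by the CREB family. The window is the 250 bases before the start, chr2:109692186-109692435 on the plus strand, from RefSeq on GRCm38.p6, and the capitals mark the letters TCACGTCA, which begin 38 bases before the start.
Bdnf, before first exon 4: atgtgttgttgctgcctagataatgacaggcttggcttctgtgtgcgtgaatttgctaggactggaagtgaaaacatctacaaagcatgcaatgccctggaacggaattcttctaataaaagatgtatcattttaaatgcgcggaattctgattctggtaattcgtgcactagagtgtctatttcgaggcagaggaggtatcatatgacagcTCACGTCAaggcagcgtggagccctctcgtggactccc
The letters TCACGTCA, searched on both strands, were found in 115 of 32851 windows of this length (0.350%). The palindromic element TGACGTCA was found in 1.55% of them, the E-box CACGTG in 6.02% and the EGR element GCGTGGGCG in 0.536%. Of 7 Bdnf windows, that before first exon 4 was the only one with any of these letters. Windows were matched for 4 of the 6 genes, 11 in all, and the only other match was CACGTG 231 bases before a start of Ntf3. A match describes letters in this window and says nothing of binding, and the windows of first exons 2 and 6 were not among those matched.

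Ntf3 has 3 transcripts on 2 first exons, and the quantifications differed on which was used. From alignments, Ntf3-203, on the first exon that starts at chr6:126164960, had 4.23 and 4.28 TPM, and Ntf3-202 and Ntf3-201, on the upstream first exon, had 0.69 TPM together in replicate 1 and were listed at 0 in replicate 2. From reads, the upstream first exon had 4.36 and 6.18 TPM, and Ntf3-203 had 3.20 TPM in replicate 1 and was listed at 0 in replicate 2. The share of the upstream first exon was 7.01% ± 9.92 from alignments and 78.8% ± 30.0 from reads (SD, n = 2). No leading Ntf3 promoter can be named from these tables.

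Sort1 was carried mainly by Sort1-201, of 825 codons, with 84.4 and 87.7 TPM (77.3% ± 1.61 of the gene, SD, n = 2). Sort1-203, of 858 codons, with the 33-codon exon printed above, had 24.1 and 21.9 TPM (20.6% ± 1.53, SD, n = 2). From reads Sort1-203 had 41.5 and 49.8 TPM (28.6% ± 3.25, SD, n = 2). Both quantifications placed Sort1-203 below Sort1-201, and they differed on which library had the higher share: 21.7% and 19.5% from alignments against 26.3% and 30.9% from reads. The retained-intron entry Sort1-202 held 2.09% ± 0.0778 (SD, n = 2) of the TPM. Words of 31 bases found in no other transcript of the gene numbered 60 for Sort1-203 and 92 for Sort1-201. The bases of the insert also lie within Sort1-202, so the shares of these forms rest on few bases that tell them apart.

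Read in the orientation of each transcript, little of the sequence of these genes is shared with other genes. Between 0% and 1.26% of the words of 31 bases of each gene occur in that orientation in another annotated gene. Ngfr had the most, and Ntf3 and Sort1 had none. Words shared with a gene on the opposite strand were not counted. Exons of Bdnf overlap the antisense gene Gm45346, at 0.15 and 0.37 TPM, and exons of Sort1 overlap the antisense gene Gm12523, at 0.87 and 0.18 TPM. The sources used here do not state whether the counting used strand. Whether reads from the overlapping stretches of these pairs were kept apart is therefore not known.

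The wider pathway was measured with 81 listed genes, of which 75 had at least 1 TPM in both libraries. Beside them, 58.7% of all nuclear protein-coding genes did, and this share also stands beside each list count below. The median was 29.8 TPM over all 81, while the 14.9 TPM given above is over detected genes only. The lists were chosen with earlier results of these data known, so the counts only describe them. Of the 75, 1 was over 1.2-fold lower and 9 were over 1.2-fold higher in replicate 2, beside 11.6% and 9.51% of all genes. The lower one, named after its value was seen, was Creb1, the transcription factor CREB, with 21.2 and 14.9 TPM. Among the other ligands, Ntf5, neurotrophin-4, was at 0.05 TPM in both libraries, far below Bdnf and Ntf3.

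Of 5 other receptors of the Trk and sortilin families, 4 had at least 1 TPM in both libraries. Sorl1 (58.9 ± 2.24 TPM), Sorcs2 (24.4 ± 0.933 TPM) and Sorcs3 (13.3 ± 1.37 TPM), all relatives of sortilin, lay below Sort1. Of 12 genes for processing of proneurotrophins, 8 had at least 1 TPM, with a median of 7.84 TPM. Cpe, carboxypeptidase E, which also sorts BDNF into secretory granules, had 1384 ± 24.99 TPM, followed by the convertase Pcsk2 at 66.3 ± 0.191 TPM and the plasminogen activator Plat at 26.3 ± 1.25 TPM, while Mmp7 was listed at 0.

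All 28 genes for adaptors and signalling downstream of Trk receptors had at least 1 TPM in both libraries, with a median of 42.7 TPM. The Trk-interacting scaffold Kidins220 was among the 3 highest at 140.0 ± 7.73 TPM, and the adaptor Sh2b2 was the lowest at 3.53 ± 0.368 TPM. All 13 genes for co-receptors and adaptors of p75 were also at 1 TPM or more in both libraries, with a median of 33.0 TPM. Ngfr itself was at 1 TPM or more only in replicate 1. Maged1 (204 ± 11.4 TPM), Bex3 (162 ± 12.9 TPM) and Arhgdia (160.4 ± 8.97 TPM), which bind the intracellular part of p75 or act with it, were the highest, and Nradd, a homologue of p75, was the lowest at 1.15 TPM in both libraries.

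All 12 listed regulators of Bdnf promoters had at least 1 TPM, with a median of 43.7 TPM. Mef2d (67.8 ± 6.53 TPM), Arnt2 (66.9 ± 2.98 TPM) and the CREB coactivator Crtc1 (58.4 ± 0.530 TPM) were the highest. Npas4, an activity-induced factor that binds Bdnf promoters, was the lowest at 2.46 ± 0.368 TPM. All 10 genes that BDNF is known to induce had at least 1 TPM, with a median of 30.2 TPM. Vgf, a neuropeptide precursor, was the highest at 120.2 ± 5.19 TPM, followed by Homer1 at 59.8 ± 4.24 TPM and Npy at 42.2 ± 4.21 TPM, and Fos was the lowest at 4.96 ± 0.919 TPM. Each SD in the account of the pathway is over n = 2 libraries.

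**Figure D4:**
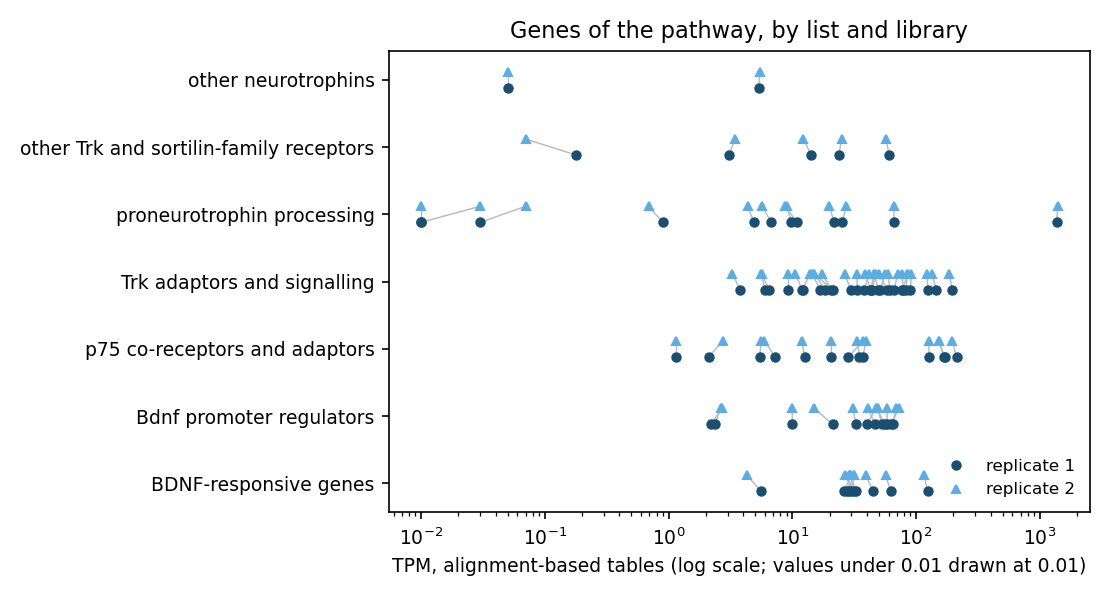
Level of each listed pathway gene in TPM on a log scale, by list; dark circles are replicate 1, light triangles replicate 2, and grey lines join the same gene. The lists for Trk signalling, p75 partners, Bdnf regulators and BDNF-responsive genes have every gene at 1.15 TPM or more, while the list for processing has genes at or near 0.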

How the data were processed

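Both libraries were quantified by the authors against mm10 and GENCODE M21, per the file headers and the labels. The deposited alignment-based gene and transcript tables, in the layout of RSEM output, give expected counts, TPM, FPKM, the percent of the gene's TPM per transcript and an interval for TPM whose level is not stated. The deposited read-based transcript tables, in the layout of kallisto output, give estimated counts and TPM, which were summed per gene. The sources used here do not state the aligner, the tool versions or the use of strand. Reads of CAST/EiJ alleles differ more from the mm10 sequence than those of C57BL/6J alleles, and alleles were not analysed here.

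Protein-coding nuclear genes held 45.0% and 42.9% of alignment-based TPM and 74.0% and 70.8% of read-based TPM, so TPM levels of the 2 quantifications differ in scale. Spike-ins took 0.430% and 0.423% of counts. The members and lists were chosen with earlier results of these data known. Transcripts were called full-length where their complete coding sequence ends at the stop codon of the gene's longest one, and truncated where it ends elsewhere. First exons were grouped by overlap. Transcripts with at least 5% of their gene's TPM in the mean of either quantification are named, others only where a class or first exon holds them or as a retained intron, and for each list the 3 highest and the lowest genes, some of which are not reported here. Ratios between libraries used TMM scaling (edgeR 4.0.16, on expected counts rounded to whole numbers) and a prior count of 0.5. Intervals were exact binomial at 95%, also from rounded counts, and the scaling step was checked on simulated data. DESeq2 1.42.0 size factors, spike-in totals, FPKM, another denominator, the read-based tables and each library alone were the alternatives. Sequences were read from the GENCODE M21 transcripts and RefSeq windows with Python 3.11.15.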

Additional observations from a re-analysis of the deposited data

How the results depend on the processing

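With 2 libraries and counts of 48 to 83, the Ngfr level is the least precise of the 6, and transcripts told apart by few bases are limited by how reads were assigned. Mean levels changed with the scale but kept their order. From reads they were 19.3 TPM for Bdnf, 6.87 for Ntf3, 193 for Ntrk2, 125.5 for Ntrk3, 1.30 for Ngfr and 159 for Sort1. Over nuclear protein-coding genes they were 32.0 for Bdnf, 10.4 for Ntf3, 294 for Ntrk2, 192 for Ntrk3, 1.94 for Ngfr and 254 for Sort1. From reads on that denominator, a choice made after seeing the data, they were 26.7 for Bdnf, 9.47 for Ntf3, 267 for Ntrk2, 173 for Ntrk3, 1.79 for Ngfr and 219.9 for Sort1. As FPKM they were 9.665 for Bdnf, 3.16 for Ntf3, 88.7 for Ntrk2, 57.975 for Ntrk3 and 76.5 for Sort1. The truncated share of Ntrk2 was 51.0% by expected counts (49.5% in replicate 1, where full-length transcripts were then the larger class, and 52.6% in replicate 2) and 49.3% by read-based counts, an alternative added after seeing the data, and that of Ntrk3 was 19.3% by expected counts, 18.3% by read-based counts and 33.2% of all Ntrk3 transcripts. By read-based TPM, which changes the scaling as well as the quantification, 2 genes were over 1.2-fold apart in place of 1, as Ntf3 joined Ngfr. No paired analysis was possible because the study has 1 group.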
